A study of Mus musculus with 12 samples.

Results

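The genes examined here are 10 mouse genes of muscle atrophy and the response of muscle to denervation: Trim63, Fbxo32, Fbxo31, Mstn, Foxo1, Foxo3, Runx1, Gadd45a, Ncam1 and Hdac4. They were listed by name from their known roles, at a time when earlier results of these data were known. Each was read from an array probe cluster, a set of probes reported as a single value, whose only annotated gene symbol was that gene. All 10 had such a cluster, among 19752 genes that could be read in this way, and all were tested without a filter on low values. The study measured RNA from whole tibialis anterior muscle of C57BL/6 mice aged 8 weeks on 12 Affymetrix Mouse Gene 1.0 ST arrays. Every mouse had its muscle injured with cardiotoxin, a snake venom toxin that kills muscle fibres and starts their regeneration, and every mouse received diphtheria toxin on alternate days from the injury on. Amphiregulin (AREG), a growth factor that signals through the EGF receptor, or its vehicle PBS was injected into the muscle on day 0 and later into the peritoneum. The 4 groups, with 3 arrays each, were Foxp3-DTR- mice given AREG or PBS and sampled on day 4, and Foxp3-DTR+ mice given AREG or PBS and sampled on day 8.

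Foxp3-DTR+ mice carry a diphtheria toxin receptor under control of the Foxp3 gene, so that the toxin removes regulatory T cells. Foxp3-DTR- mice lack the receptor and keep these cells. Day and genotype change together between the pairs of groups and cannot be told apart. Whether the 3 arrays of a group come from 3 animals is not stated in the labels, and the p-values then speak only of the spread among these samples. In whole muscle, fewer cells of a type and less RNA per cell cannot be told apart.

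Muscle mass falls when protein breakdown outpaces synthesis. The transcription factors Foxo1 and Foxo3, held in the cytoplasm by Akt when growth factors are present, enter the nucleus when that signal drops or glucocorticoids rise, and activate the ubiquitin ligase genes Trim63 (MuRF1) and Fbxo32 (atrogin-1) together with autophagy genes. Denervation adds another layer: the histone deacetylase Hdac4 accumulates, myogenin rises, and genes that nerve activity keeps silent return across the fibre, among them acetylcholine receptor subunits, the adhesion molecule Ncam1, the transcription factor Runx1 and the stress gene Gadd45a. Regenerating fibres that have not yet been reinnervated express several of the same genes. Mstn encodes myostatin, a secreted inhibitor of muscle growth made by muscle fibres.

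Promoter sequence is shown for 3 of the genes: Trim63, the gene most out of step in a single array, Mstn, and Runx1, a gene that fell with AREG on day 4. RefSeq's mouse assembly GRCm38.p6 gave upstream windows for 8 of the 10 genes. Each line holds the 250 bases upstream of the annotated transcription start, read 5′ to 3′ on the gene's strand. Capitals mark matches, on either strand, to a FoxO element (TGTTTAC), an E-box (CANNTG, the core bound by myogenin and other myogenic factors) or the core of a glucocorticoid response element (GAACA and TGTTC with 3 bases of any kind between them).
Trim63, chr4:134314870-134315119, plus strand: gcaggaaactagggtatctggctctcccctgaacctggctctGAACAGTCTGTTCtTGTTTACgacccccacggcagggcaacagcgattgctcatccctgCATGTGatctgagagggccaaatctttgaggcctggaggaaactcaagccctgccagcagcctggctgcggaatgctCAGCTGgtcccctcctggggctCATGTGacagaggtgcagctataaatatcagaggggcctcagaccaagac
Mstn, chr1:53061390-53061639, plus strand: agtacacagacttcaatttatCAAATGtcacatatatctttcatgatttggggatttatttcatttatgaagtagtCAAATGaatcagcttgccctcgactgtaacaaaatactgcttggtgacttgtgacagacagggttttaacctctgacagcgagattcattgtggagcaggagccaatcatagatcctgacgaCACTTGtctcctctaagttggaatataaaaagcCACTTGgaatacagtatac
Runx1, chr16:92826075-92826324, minus strand: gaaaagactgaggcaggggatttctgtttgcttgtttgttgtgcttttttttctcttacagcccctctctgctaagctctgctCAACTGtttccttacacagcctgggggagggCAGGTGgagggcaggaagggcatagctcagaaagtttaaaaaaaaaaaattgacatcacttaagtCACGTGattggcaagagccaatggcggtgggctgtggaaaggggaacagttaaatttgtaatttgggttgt

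The Trim63 window held a FoxO element at position -194 from the start, the glucocorticoid element core at position -208 and 3 E-boxes. FoxO elements were found in 3.17% of the 32851 promoter windows of this length, and the glucocorticoid core in 13 of them, 0.0396%. The core was searched for after the Trim63 window had been seen, so its 0.0396% does not measure how unusual the Trim63 match is. The full glucocorticoid response element, which is longer than the core, was the form set beforehand. It had no match in the windows of the 8 genes, Trim63 included. Mstn held 4 E-boxes and the Runx1 window shown held 3, and E-boxes were found in 66.2% of all windows. Runx1 had another window, chr16:92697330-92697579 on the minus strand, with no match. Trim63 was the only gene of the 8 with a FoxO element, and a RUNX motif (TGTGGT, found in 14.0% of all windows) was in none of them. A match describes letters in the window and does not show that a factor binds there.

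Values are given as log2 intensity, on which a difference of 1 is a 2-fold change. The 12 arrays had median intensities between 134 and 143. All 16 markers of mature fast fibres exceeded the level of the median gene in every group, which fits the labelled tissue. Foxp3, the gene that marks regulatory T cells, read from 6.51 to 6.73 in Foxp3-DTR- and from 6.49 to 6.75 in Foxp3-DTR+ muscle, so its level does not show the depletion. A pair of arrays stood apart. Replicate 3 of the day 8 AREG group was the highest of the 12 arrays for 7 of the 10 genes (70%) and the lowest for 2 (20%), against 10.7% and 12.4% of all genes. Replicate 1 of the day 4 AREG group had the narrowest spread of levels over genes and was the highest array for 30% of all genes, but for none of the 10.

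**Figure D1:**
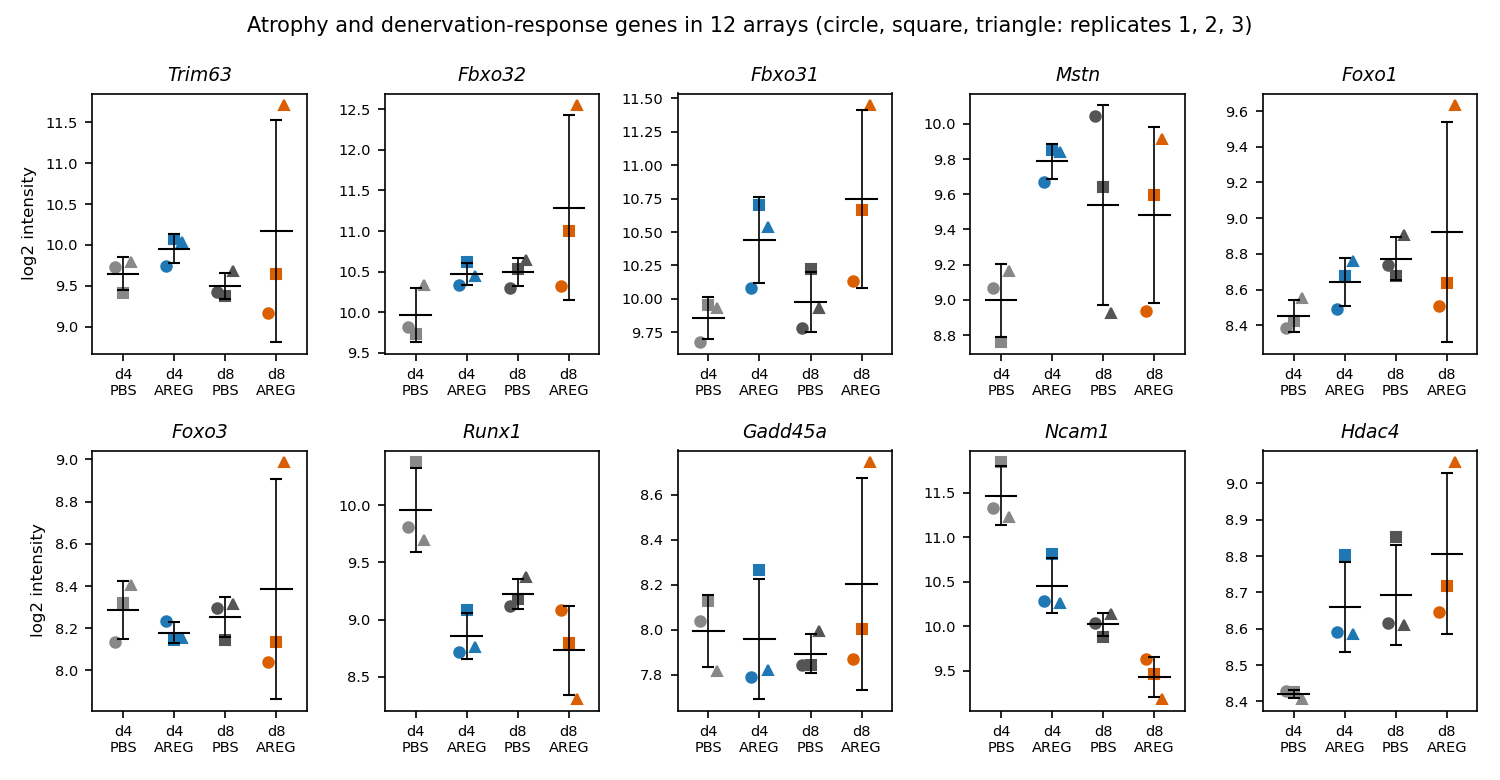
Log2 intensity of the 10 genes on each of the 12 arrays, 1 panel a gene, with groups on the x axis (day and treatment), 1 symbol an array and bars for the mean ± SD of 3 arrays. Trim63 and Fbxo32 have a single high array at day 8 with AREG, at 11.71 and 12.55, while Ncam1 and Runx1 are highest in the day 4 PBS group.

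On day 4 Ncam1 and Runx1, listed here for their part in the denervation response, fell with AREG. None of the ligase, FoxO or myostatin genes passed the test. Ncam1, a neural cell adhesion molecule that spreads over the whole fibre after denervation and in regeneration, read 11.33, 11.84 and 11.23 on the 3 PBS arrays and 10.29, 10.81 and 10.26 with AREG. The groups did not overlap, and the change was -1.01 ± 0.18 (SE) on the log2 scale, a 2.01-fold lower level (limma, 2-sided, Benjamini-Hochberg adjusted p = 0.0198). Runx1, a transcription factor that is induced in denervated muscle and limits wasting there, read 9.80, 10.37 and 9.69 with PBS and 8.72, 9.08 and 8.76 with AREG. Again every AREG array lay below every PBS array, and the change was -1.10 ± 0.20, a 2.15-fold lower level (adjusted p = 0.0198).

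These 2 genes, 20% of the 10, stood against 2.90% of all genes called on day 4 at an adjusted p under 0.05, and against 2.11% called lower. Since the list was chosen with earlier results of these data known, these shares describe the list and do not test it. Both calls were lost when any of 3 arrays was left out. Without PBS replicate 2 the adjusted p was 0.145 for each, without AREG replicate 1 it was 0.0667 for each, and without AREG replicate 3 it was 0.0812 for Runx1 and 0.0835 for Ncam1. The changes kept their direction in all 3 of these fits, between -0.82 and -0.93 for Ncam1 and between -0.90 and -1.06 for Runx1. Over all genes, 573 were called on day 4, and 9, 15 and 9 without each of these arrays. Of the 573, 27.2% were higher with AREG, and 41.4% of the calls were higher when quantile normalization was repeated. Blocking on the replicate number, since same-numbered day 4 arrays deviated together, gave 914 called genes, with the same 2 members among them, Ncam1 at an adjusted p of 0.0073 and Runx1 at 0.011.

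Hdac4, the deacetylase that carries the denervation signal to the nucleus, read 8.43, 8.43 and 8.41 with PBS on day 4. With AREG it read 8.59, 8.80 and 8.58. The groups did not overlap, but the change of 0.24 ± 0.13 did not pass (limma adjusted p = 0.377). Gadd45a, which remodels fibre nuclei in denervated and fasted muscle, read 8.04, 8.13 and 7.82 with PBS and 7.79, 8.27 and 7.82 with AREG. Its groups overlapped, and its change of -0.03 ± 0.19 had a 95% interval of -0.45 to 0.38.

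Among the ligases, Trim63, a RING finger protein that marks thick filament proteins for the proteasome, read 9.73, 9.42 and 9.79 with PBS and 9.75, 10.07 and 10.04 with AREG. The groups overlapped by a single array each, and the change of 0.31 ± 0.42 did not pass (limma adjusted p = 0.817). Fbxo32, the F-box subunit of the other classical atrophy ligase, read 9.82, 9.73 and 10.34 with PBS and 10.34, 10.62 and 10.45 with AREG. All AREG arrays were at or above the highest PBS array, yet the change of 0.51 ± 0.37 did not pass (adjusted p = 0.584). Fbxo31, an F-box protein best known for degrading cyclin D1 after DNA damage, read 9.68, 9.96 and 9.94 with PBS and 10.08, 10.71 and 10.54 with AREG. Its groups did not overlap and its change was 0.59 ± 0.25 (adjusted p = 0.241).

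Mstn read 9.07, 8.76 and 9.16 with PBS on day 4 and 9.67, 9.85 and 9.84 with AREG. Every AREG array was above every PBS array, by a mean of 0.79 ± 0.25 (1.73-fold), which missed the threshold (limma adjusted p = 0.105). The adjusted p was 0.0105 when only the 6 day 4 arrays were fitted, and 0.0484 and 0.0465 when replicate 1 or replicate 3 of the day 8 AREG group was left out. With array weights it was 0.00176. The other 17 of 21 alternative fits left Mstn uncalled, with an adjusted p of up to 0.431. Foxo1 ranged from 8.38 to 8.55 with PBS and from 8.49 to 8.76 with AREG, and Foxo3 from 8.13 to 8.40 and from 8.14 to 8.24. Both transcription factors overlapped between groups, with changes of 0.19 ± 0.21 and -0.11 ± 0.19.

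Groups did not overlap for 6 of the 10 genes on day 4: Fbxo32, Fbxo31, Mstn and Hdac4 were higher and Runx1 and Ncam1 lower with AREG. The same held for 22.3% of all genes, 10.2% higher and 12% lower. At an unadjusted p under 0.05 the count was 4 of 10 genes, against 17% of all genes. The median change of the 10 was 0.21, and that of all genes 0.04.

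**Figure D2:**
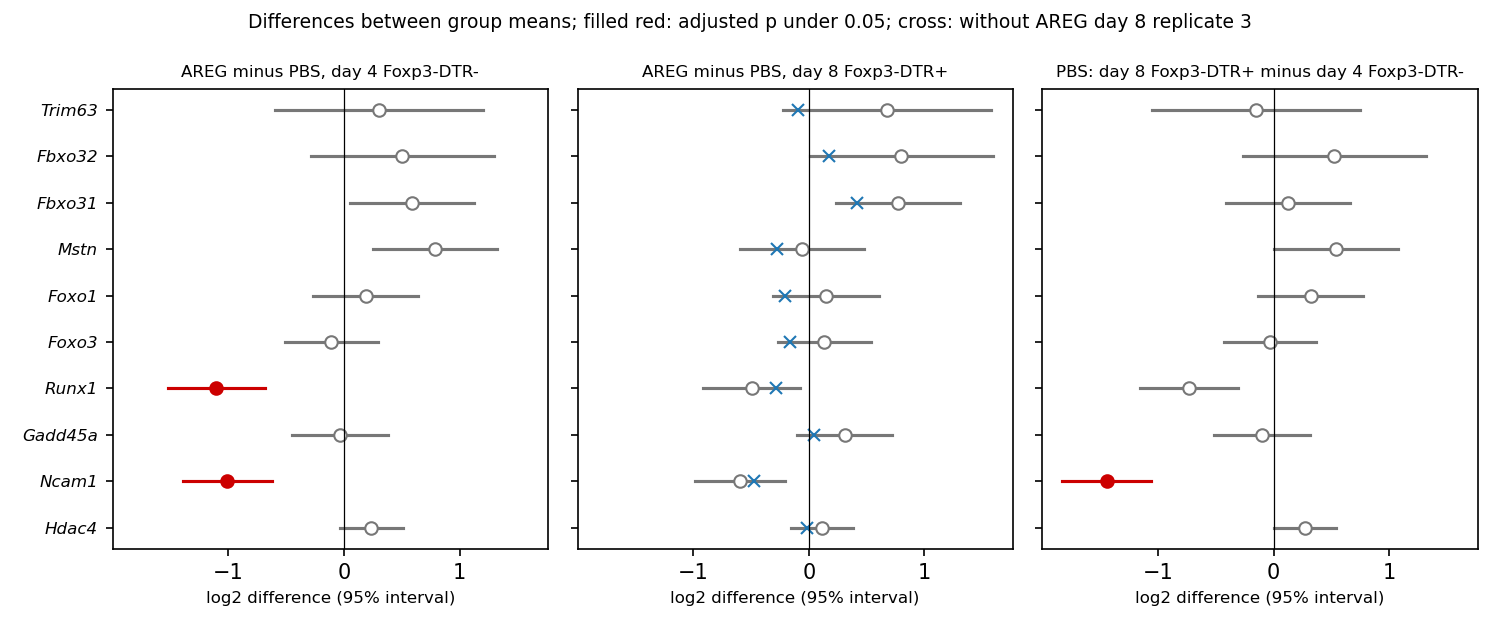
Log2 change with its 95% interval for each of the 10 genes in the AREG against PBS comparisons and between the PBS groups, with crosses for the day 8 change without AREG replicate 3. On day 4 the intervals of Ncam1 and Runx1 lie below 0, and the day 8 change of Trim63 moves from 0.67 to -0.09 at its cross.

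The denervation genes measured beside the members behaved as a mixed set on day 4. Of 23 denervation-response and synaptic genes, 5 fell, 1 rose and 17 did not pass, with a median change of -0.15. The genes that fell were the acetylcholine receptor subunits Chrng, the fetal form (-1.28), Chrna1 (-1.10) and Chrnd (-0.84), the transcription factor Myog (-1.10) and the intermediate filament Nes (-0.70). Dach2, a repressor of myogenin whose level drops after denervation, rose by 0.86. Its level was low beside the other genes named here, at 4.90, 4.91 and 5.24 with PBS and 6.04, 5.72 and 5.87 with AREG. The highest of these values was on AREG replicate 1, the array that was highest for 30% of all genes.

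Other cell types moved with these genes on day 4. Markers of regenerating fibres, such as the embryonic myosins, summed to intensities of 31200 to 43370 on the PBS arrays and 19510 to 26430 with AREG, and 4 of 12 fell, with a median change of -1.01. Markers of satellite cells and myoblasts, which include Myog, summed to 3625 to 5216 and 2789 to 3179, and 2 of 11 fell. Macrophage markers summed to 12140 to 16710 and 5633 to 7551, and 9 of 15 fell. Ncam1 is also made by satellite cells and Schwann cells. Schwann cell markers summed to 3285 to 3515 with PBS and 3294 to 4189 with AREG, and 2 of 9 fell, the receptor Erbb3 by 0.65 and the transcription factor Egr2 by 0.58, with a list median of 0.17. Adipocyte markers went up, from sums of 2960 to 4021 with PBS to 4325 to 5477 with AREG: 3 of 9 rose, with a median change of 0.64. Which cells of the muscle held the Ncam1 and Runx1 RNA was not measured. The part of any of these cells in the day 4 values of the members, Runx1 and Ncam1 included, was not tested.

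**Figure D3:**
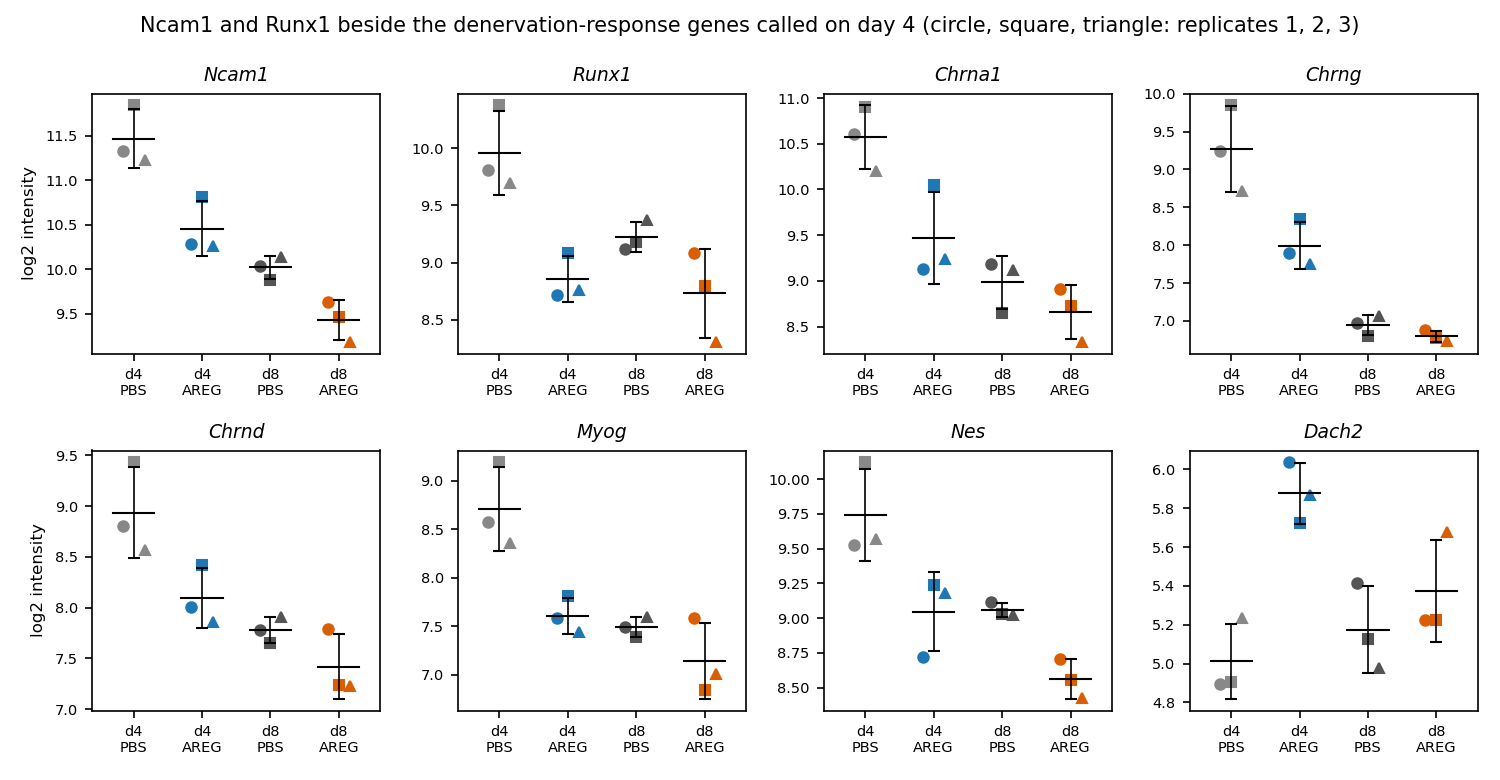
Log2 intensity on each array for Ncam1, Runx1 and the 6 other denervation-response genes called on day 4, with bars for the mean ± SD of 3 arrays and groups by day and treatment on the x axis. All but Dach2 are highest on the day 4 PBS arrays, where replicate 2 (squares) is the highest array.

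Few pathway genes around the other members were called on day 4. Of 26 autophagy genes and FoxO targets, 2 rose, Txnip by 0.53 and the autophagy kinase Ulk2 by 0.49, and 24 did not pass, with a list median of 0.19. Of 17 glucocorticoid response genes the metallothioneins Mt1 (-0.81) and Mt2 (-1.20) fell and 15 did not pass. Of the 17, 11 were higher with AREG and 6 lower, with a list median of 0.19, beside 11667 of all 19752 genes higher. At an unadjusted limma p under 0.05 there were 10 of the 17, against 17% of all genes. Of 16 genes of the IGF, Akt and mTOR growth pathway, Akt1 fell by 0.59 and 15 did not pass. None of 17 other muscle ubiquitin ligases, 31 proteasome subunits, 21 genes of the myostatin and activin pathway or 11 relatives of Hdac4, Mef2, Gadd45a and Runx1 passed, with list medians of 0.10, -0.09, 0.07 and 0.11.

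On day 8, in Foxp3-DTR+ mice, none of the 10 genes passed the test for AREG against PBS, and 1 of all 19752 genes (0.00506%) did. At an unadjusted p under 0.05 the counts were 4 of the 10 and 7.62% of all genes, or 1506. Trim63 read 9.43, 9.38 and 9.68 with PBS and 9.16, 9.64 and 11.71 with AREG. A single array, replicate 3, carried its mean change of 0.67 ± 0.42 (limma adjusted p = 0.749), and without that array the change was -0.09. Fbxo32 read 10.30, 10.53 and 10.64 with PBS and 10.32, 11.00 and 12.55 with AREG. Its change of 0.80 ± 0.37 (adjusted p = 0.652) became 0.17 without replicate 3.

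Fbxo31 read 9.78, 10.22 and 9.93 with PBS and 10.13, 10.66 and 11.45 with AREG on day 8. The groups overlapped, and the change was 0.77 ± 0.25 (limma adjusted p = 0.60), or 0.42 without replicate 3. The other probe cluster of Fbxo31, at a lower mean level of 9.07, changed by 0.48 on day 4 and 0.50 on day 8. Mstn read 10.05, 9.64 and 8.93 with PBS and 8.94, 9.60 and 9.91 with AREG. Its arrays spanned more than 1 log2 unit within the PBS group, and the change was -0.06 ± 0.25.

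Runx1 and Ncam1 were the 2 of the 10 genes whose groups did not overlap on day 8, both lower with AREG, where 14.2% of all genes did not overlap, 7.06% higher and 7.14% lower. Ncam1 read 10.04, 9.88 and 10.14 with PBS and 9.63, 9.46 and 9.19 with AREG, a change of -0.59 ± 0.18 (limma adjusted p = 0.599). Runx1 read 9.12, 9.18 and 9.38 with PBS and 9.08, 8.80 and 8.31 with AREG, a change of -0.49 ± 0.20 (adjusted p = 0.64). Replicate 3 was the lowest AREG array for both genes, and without it the changes were -0.48 and -0.28.

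For the other 4 genes, the day 8 AREG group was likewise spread out by replicate 3. Foxo1 read 8.51, 8.63 and 9.63, against 8.74, 8.68 and 8.91 with PBS. Foxo3 read 8.04, 8.14 and 8.99, against 8.30, 8.15 and 8.32. Gadd45a read 7.87, 8.00 and 8.74, against 7.84, 7.84 and 8.00. Hdac4 read 8.65, 8.72 and 9.06, against 8.62, 8.85 and 8.61. Their changes lay between 0.11 and 0.31 with all arrays and between -0.20 and 0.04 without replicate 3.

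Replicate 3 of the day 8 AREG group is described next by its own values, as a single array with no test. Its distance from the mean of replicates 1 and 2 was 2.30 for Trim63, the largest rise of all 19752 genes, and 1.89 for Fbxo32, the third largest. Foxo1 stood 1.06 higher, Fbxo31 1.05, Foxo3 0.90, Gadd45a 0.81, Mstn 0.65 and Hdac4 0.38, while Ncam1 stood at -0.36 and Runx1 at -0.63. The median over the 10 genes was 0.85, against 0.04 over all genes. The 3 ligases, both FoxO factors, Gadd45a and Hdac4 were at their highest on this array, and Ncam1 and Runx1 at their lowest.

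Many genes of the same pathways were high on that array too, and some were low. Of 17 glucocorticoid response genes, 10 were at their highest there, with a median distance of 0.66. Among them were Glul, glutamine synthetase (1.70), Fkbp5, a chaperone of the glucocorticoid receptor (1.46), and the transcription factors Zbtb16 (1.34), Klf15 (0.86) and Klf9 (0.80). Of 26 autophagy genes and FoxO targets 15 were at their highest, with a median of 0.44, including Pdk4, a brake on glucose oxidation (1.34), Gabarapl1 (1.13), Eif4ebp1, a repressor of translation (1.07), Sqstm1 (1.07) and Bnip3 (0.91). The growth pathway had 10 of 16 genes at their highest, among them Pik3r1, the regulatory subunit of PI3 kinase (1.28), and Akt2 (0.97). Proteasome subunits had 19 of 31, with a median of 0.28, and the other ligases 6 of 17, with a median of 0.29 and Asb2 (0.92), Ubr2 (0.82) and Trim54 (0.81) in front. Myostatin pathway genes were highest on it in 2 of 21 cases (9.52%) and denervation genes in 1 of 23 (4.35%, Musk at 0.83), beside 10.7% of all genes, with medians of 0.12 and -0.09. The array was the lowest for 3 of the 16 growth pathway genes (18.8%), Igf2 (-1.41), Igf1 (-1.28) and Igfbp5 (-1.06), beside 12.4% of all genes. Among the 23 denervation genes it was the lowest for 6 (26.1%): Ky (-1.05), Ache (-0.90), Chrna1 (-0.48), Chrnd (-0.28), Nes (-0.21) and Chrng (-0.09). Among the 21 myostatin pathway genes it was the lowest for 3 (14.3%), Fstl1 (-1.58), Bmp1 (-1.01) and Smad3 (-0.13). It was also the lowest for 2 of the 26 autophagy genes and FoxO targets, Sesn3 (-0.82) and Foxo6 (-0.28). Among the glucocorticoid response genes it was the lowest for Sgk1 (-0.60).

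Cell type markers differed on that array as well. Its distance from the other AREG arrays had a median of -0.96 over 15 macrophage markers, of which 12 were the lowest of all 12 arrays, -0.93 over 11 markers of fibro-adipogenic progenitors, of which 9 were, and -0.95 over 12 regenerating fibre markers, of which 10 were. Markers of mature fast fibres stood at -0.05, and their summed intensity was 162800 on it, where the group's sums ran up to 163400. The macrophage sum was 4853, against 9124 and 12460 on the other arrays of the group. Natural killer cell markers had a larger median distance, -1.20 over 10 markers, and a sum of 853 against 1774 and 2271. T cell markers stood at -0.68 over 10 markers. Of these, 0 natural killer cell markers and 1 T cell marker were at their lowest of the 12 arrays. Endothelial and neutrophil markers had medians of 0.27 and 0.29. The array's quality weight in limma was 0.321, where 1 is average, and that of day 4 AREG replicate 1 was 0.167. The part of cell makeup, glucocorticoid state or array quality in the levels of the ligases was not tested.

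**Figure D4:**
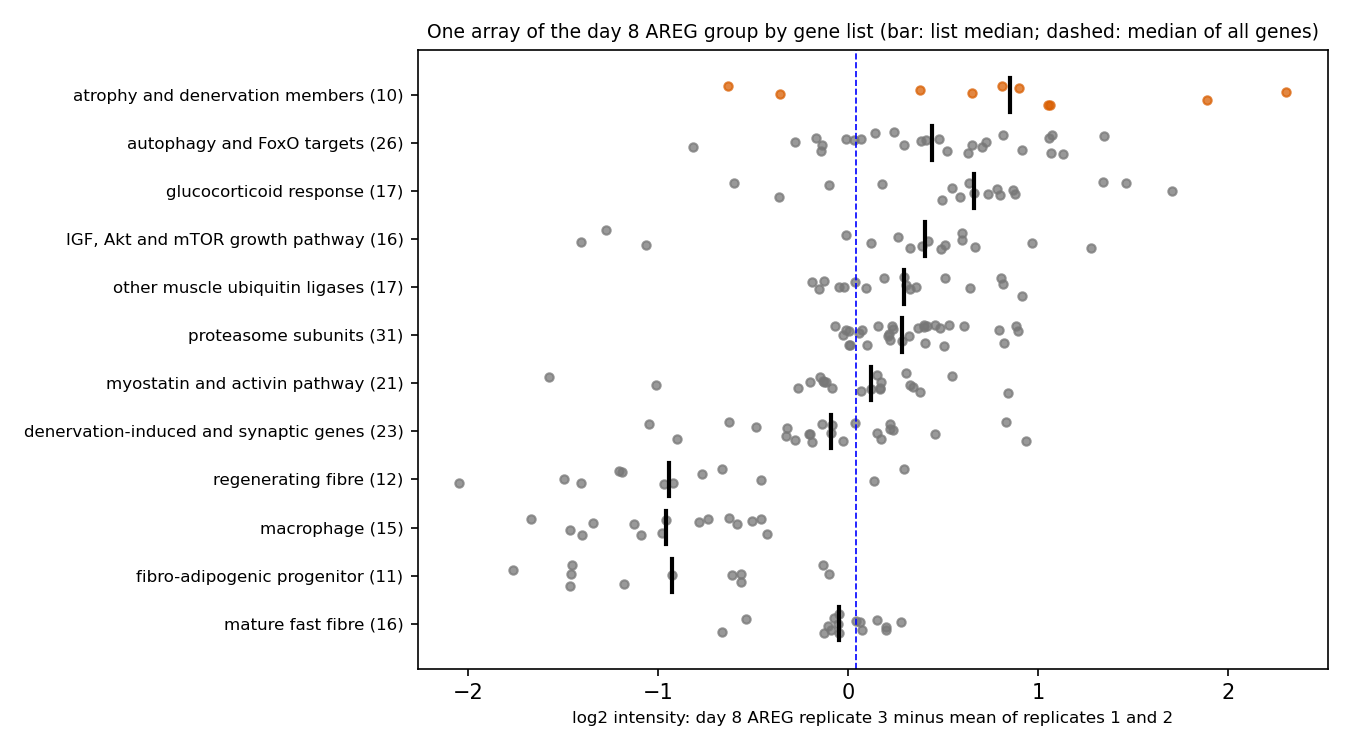
Distance of day 8 AREG replicate 3 from the mean of replicates 1 and 2, in log2 intensity, for every measured gene of the members and of 11 lists, with a bar at each list's median and a dashed line at the median of all genes (0.04). The members reach from -0.63 to 2.30, and the regenerating fibre, macrophage and fibro-adipogenic progenitor lists have medians near -0.95.

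The AREG effect averaged over both settings was called for 3 of the 10 genes, 1 higher and 2 lower, where 3.41% of all genes were called, 0.415% higher and 2.99% lower. Of those 673 calls, 12.2% were higher, and 27.8% were when quantile normalization was repeated. Ncam1 fell by 0.80 ± 0.13 (limma adjusted p = 0.0122) and Runx1 by 0.80 ± 0.14 (adjusted p = 0.0155). Ncam1 stayed called with any single array left out. Runx1 did not when day 4 PBS replicate 2 (adjusted p = 0.0547), day 4 AREG replicate 1 (0.0521) or day 8 PBS replicate 3 (0.0519) was left out. Of the 23 denervation genes, Nes, Chrng, Chrna1, Chrnd and Myog fell in the mean effect, by 0.59 to 0.72, and Dach2 rose by 0.53. Fbxo31 rose by 0.68 ± 0.18, at the edge of the threshold (adjusted p = 0.0498). That call was lost with arrays centred on their medians (0.0559), with a pseudocount of 32 (0.0789), with the mean of its clusters (0.0872) and with a robust fit (0.0661). Among the 12 fits without a single array, day 8 AREG replicate 1 was the only array whose removal left Fbxo31 called, and the changes ran from 0.50 to 0.83. Fbxo32, at 0.65 ± 0.26 (adjusted p = 0.192), was called only without day 8 AREG replicate 1 (0.90, adjusted p = 0.017) and with array weights.

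The AREG effects at the 2 settings were compared directly by their difference, day 8 minus day 4. No member and none of all 19752 genes (0%) passed with limma. At an unadjusted p under 0.05 there were 2 of the 10 genes and 5.87% of all genes, or 1160. Mstn differed by -0.85 ± 0.36 (unadjusted p = 0.0315, adjusted p = 0.819): AREG arrays were above PBS arrays on day 4 and among them on day 8. Runx1 differed by 0.61 ± 0.28 (unadjusted p = 0.0456, adjusted p = 0.834), with the larger fall on day 4. The interval of the difference for Trim63 ran from -0.90 to 1.64.

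Between the PBS groups, day 8 Foxp3-DTR+ against day 4 Foxp3-DTR-, Ncam1 fell and no other member passed. This comparison shares the day 4 PBS arrays with the day 4 AREG comparison. Ncam1 was lower by 2.72-fold, a change of -1.44 ± 0.18 (limma adjusted p = 0.000388), and was called with any single array left out. The background was 2.34% of all genes called, 1.19% higher and 1.15% lower. Runx1 changed by -0.73 ± 0.20 without overlap between the groups and missed the threshold (adjusted p = 0.0736). Of 21 alternative fits, 16 left Runx1 uncalled, with an adjusted p of up to 0.416, and 5 called it. These were the fit of these 6 arrays alone (0.0281), array weights (0.00376) and the replicate number as a block (0.00965). The others left out replicate 1 (0.0419) or replicate 3 (0.0192) of the day 8 AREG group. Replicate numbers did not pair the arrays of the PBS groups. Mstn (0.54 ± 0.25), Fbxo32 (0.53 ± 0.37), Foxo1 (0.32 ± 0.21) and Hdac4 (0.27 ± 0.13) were higher on day 8 and did not pass. Groups did not overlap for 4 of the 10 genes, Foxo1 and Hdac4 higher and Runx1 and Ncam1 lower, and for 23.4% of all genes, 9.17% higher and 14.2% lower.

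Of 23 denervation genes 5 fell between the PBS groups: Chrng (-2.32), Chrna1 (-1.59), Myog (-1.22), Chrnd (-1.15) and Nes (-0.68). The adult receptor subunit Chrne (0.50 ± 0.18) and Chrnb1 (-0.11 ± 0.17) did not pass. Sln, which encodes the calcium pump inhibitor sarcolipin, rose by 0.67. Of the 26 autophagy genes and FoxO targets, Map1lc3a rose by 0.55. Regenerating fibre markers fell in 6 of 12 cases, with a median of -1.05 and sums of 31200 to 43370 on day 4 and 19820 to 22020 on day 8, and their part in the Ncam1 value was not tested. Of 9 Schwann cell markers, Erbb3 fell by 0.97. Lymphocyte markers rose, in 6 of 10 cases for T cells and 7 of 10 for natural killer cells.

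Taking the 4 groups in order of their means, Ncam1 had the widest range, from day 8 AREG (9.43 ± 0.22, SD, n = 3) through day 8 PBS (10.02 ± 0.13) and day 4 AREG (10.46 ± 0.31) to day 4 PBS (11.46 ± 0.33). No neighbours in that order overlapped. Runx1 ran from day 8 AREG (8.73 ± 0.39) and day 4 AREG (8.85 ± 0.20), which overlapped, to day 8 PBS (9.22 ± 0.13) and day 4 PBS (9.96 ± 0.36), neither of which overlapped the group below it. Fbxo32 was lowest in day 4 PBS (9.96 ± 0.33), followed by day 4 AREG (10.47 ± 0.14), day 8 PBS (10.49 ± 0.17) and day 8 AREG (11.29 ± 1.14), and day 4 PBS was the only group that did not overlap its neighbour. The same order and the same single gap held for Hdac4, from 8.42 ± 0.01 in day 4 PBS to 8.81 ± 0.22 in day 8 AREG. For Trim63, Fbxo31, Mstn, Foxo1, Foxo3 and Gadd45a all neighbours overlapped.

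The genes most like a member were taken as those with the smallest root mean square difference of centred log2 levels over the 12 arrays. For Ncam1 these were Chrna1 (0.17), Lrrc15 (0.19) and Myl4, the embryonic myosin light chain (0.21), where the median gene was at 0.78. For Runx1 they were Jpt1 (0.13), E2f8 (0.15) and Lgmn (0.16), with the median gene at 0.57. Fbxo32 was closest to Klhl38 (0.22), Zbtb16 (0.29) and Plin4 (0.29), with the median gene at 0.71. The nearest to Fbxo31 were Spns2 (0.18), Ctxn3 (0.19) and Acacb (0.20), with the median gene at 0.51. Fbxo32 and Zbtb16 both read their highest value, 12.55 and 11.08, on day 8 AREG replicate 3.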

How the data were processed

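The values are intensities that the authors deposited for 12 arrays, made with Affymetrix Power Tools and RMA (background correction, quantile normalization and probe summary) per the submitters' processing notes; versions and annotation were not given in the sources used here. Quantile normalization is meant to bring the arrays to a like distribution, so a shift of all genes together can be lost. The deposited arrays still differed in spread, with log2 interquartile ranges from 2.189 (day 4 AREG replicate 1) to 2.723 (day 8 PBS replicate 1). Of 24922 clusters, 21425 had 1 gene symbol in GEO's platform annotation, 1399 several and 2098 none listed; the highest cluster by mean over arrays stood for a gene. The intensities were taken to log2 without a pseudocount, and limma 3.58.1 (R 4.3.3) fitted 4 group means with empirical Bayes variances (8 residual and 7.1 prior degrees of freedom). P-values are two-sided, adjusted by Benjamini-Hochberg over 19752 genes and called under 0.05. An exact permutation test of 3 against 3 cannot go below 0.1 and was not used. Precision is limited by the number of arrays.

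The members and gene lists were chosen with earlier results of these data known, and p-values were not adjusted over the list alone. All 10 members are described. Of 297 other listed genes 280 were measured; pathway genes past the threshold are named, and cell type markers are given mainly as counts and sums. Alternatives covered normalization, pseudocount, a filter on low levels, probe clusters, the variance model, array weights, the arrays fitted, the replicate block and leaving out each array. The main fit did not use the replicate numbers in the titles, so its p-values are unpaired, and blocking on the numbers was an alternative. Those numbers were taken to pair the day 4 arrays. Deviations from group means of same-numbered arrays correlated there over genes at 0.558, 0.201 and 0.511. Differently numbered day 4 arrays ran from -0.486 to 0.27, and PBS replicate 3 with AREG replicate 2, at 0.27, exceeded the lowest same-numbered pair. On day 8 the same-numbered values were -0.198, 0.123 and -0.003, and between PBS groups -0.117, 0.059 and -0.068, so there the numbers did not pair the arrays. The fit was tested on simulated data.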

Additional observations from a re-analysis of the deposited data

How the results depend on the processing

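Calls among the 10 genes under array quality weights were 5 on day 4 (with Fbxo32, Fbxo31 and Mstn higher), 2 on day 8, 5 of the mean effect, 3 of its difference and 2 between PBS groups. Of all 19752 genes the same weights called 5305, 1192, 4902, 2232 and 1649 in that order, so calls rose widely and not for the members alone. Fitting the compared arrays alone gave 2 members between PBS groups, where 759 of all genes were called. Without single arrays the member counts ran from 0 to 3 on day 4, from 1 to 4 for the mean effect and from 1 to 2 between PBS groups, and stayed at 0 for day 8 and the difference. Calls over all genes on day 4 were 877 with quantile normalization repeated, 358 with a pseudocount of 32, 5305 with weights and 938 with its arrays alone, and 9 to 1336 without single arrays. On day 8 they were 1192 with weights, 0 to 1 without single arrays, and 0 with quantile normalization, centring, the pseudocount, the filter at the median level, the mean of clusters, the robust fit, its arrays alone or the block. For the mean effect they were 444 with centring, 4902 with weights and 34 to 1488 without single arrays; for the difference 2232 with weights and 0 without any single array; between PBS groups 1649 with weights, 759 alone and 209 to 719 without single arrays. With weights 52.5% of day 4 calls were higher.

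The replicate block gave 914 calls over all genes on day 4, 1104 for the mean effect and 896 between PBS groups; where the numbers did not pair the arrays, it called 3 members between PBS groups, with Fbxo32 (adjusted p = 0.0307) and Runx1 added, and it changed no other call of a member.

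Directions turned only for changes that were not called. With weights these were Mstn (0.018), Foxo1 (-0.12) and Foxo3 (-0.11) on day 8, Foxo3 (-0.13) and Gadd45a (-0.017) for the mean effect, and Trim63 (-0.30) and Fbxo32 (-0.044) for the difference. Without single arrays the ranges that crossed 0 were, on day 4, Gadd45a -0.19 to 0.05; on day 8, Trim63 -0.093 to 1.18, Mstn -0.36 to 0.22, Foxo1 -0.20 to 0.36, Foxo3 -0.17 to 0.31 and Hdac4 -0.012 to 0.19; for the mean effect, Foxo1 -0.0072 to 0.27 and Foxo3 -0.14 to 0.10; for the difference, Trim63 -0.40 to 0.87, Fbxo32 -0.34 to 0.78, Fbxo31 -0.17 to 0.49, Foxo1 -0.39 to 0.17 and Foxo3 -0.057 to 0.42; and between PBS groups, Foxo3 -0.11 to 0.025. The cause of these shifts was not tested. Leaving out an array also lowered the number of arrays, while the weighted fit kept all 12. Weights take their values from the same 3 arrays a group and follow 1 array of a group closely (weights up to 7.43). Over single members, 955 of 1030 alternative values kept their direction and their side of the threshold.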
